A study of Papio hamadryas with 14 samples.

Results

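The messenger RNA levels of 50 protein folding genes were followed in baboon kidney (Papio hamadryas, whole organ) before birth and in adults. The list was given by gene symbol and holds heat shock proteins and co-chaperones of the cytosol, subunits of the CCT chaperonin, mitochondrial chaperones, folding factors of the endoplasmic reticulum (ER), and transcription factors of the unfolded protein response. Of these, 42 had a probe set annotated with their symbol alone, out of 9580 genes with such a probe set on the arrays. The fetal kidneys came from day 60 of gestation (called 60dG, with 2 arrays) and from days 90, 125 and 160 (90dG, 125dG and 160dG, each with 3 arrays), and the others from adults aged 6, 7 and 12 years (3). The labels give no treatment or genotype for any animal. Fetal replicates are called biological in the labels, and p-values measure the spread between these samples. All RNA was hybridised to human Affymetrix arrays, the fetal samples on 1 array type and the adult samples on another, and baboon transcripts that differ from the human probes can give a lower signal.

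Chaperones bind proteins that are not yet folded, or have unfolded, and keep them from sticking to each other. In the cytosol, HSP70 proteins receive their clients from J-domain proteins and can pass them on to HSP90, while the barrel-shaped CCT complex folds actin and tubulin. Inside the ER, BiP and GRP94 are the relatives of HSP70 and HSP90, the lectins calreticulin and calnexin hold glycoproteins, and protein disulfide isomerases make and rearrange disulfide bonds. An overload of the ER starts the unfolded protein response, which raises the ER members together, and heat or other protein damage raises the cytosolic ones. In the kidney, tubule cells place large amounts of membrane transporters through the ER, and the small heat shock protein CRYAB is abundant in the medulla.

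The 37 members bright enough to be tested were 18 of the cytosol, 14 of the ER, 3 of mitochondria and 2 transcription factors. A gene was tested where its mean log2(signal + 16) over the fetal arrays exceeded that of the median probe set, a signal of 178, which 5278 genes did. The members HSPA2, DNAJB6, HSPB8, DNAJC3 and ERO1A were dimmer than that. HSPA8, the constitutive HSP70, the CCT subunit TCP1 and the disulfide isomerase PDIA5 lay only on probe sets annotated with several symbols and are given no value. HSPB2, DNAJB11, AHSA1, ATF6 and DDIT3 were not analysed here. Of the 42 members, 21 had more than 1 probe set, and the brightest over the fetal arrays was used.

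No marker of the kidney cell types was listed at 0 on a fetal array, but some were dim, such as SLC22A6 with 5.1 and 14.8 at 60dG. Presence was not tested. The summed signal of 10 proximal tubule markers was 2706 to 3060 at 60dG, 7331 to 9949 at 90dG, 9889 to 11637 at 125dG, 8582 to 19019 at 160dG and 20386 to 21633 in adults. The sum of 14 cell cycle genes was 9529 to 9588 at 60dG, 5650 to 6801 at 90dG, 3645 to 4643 at 125dG and 2061 to 3138 at 160dG. In bulk tissue, fewer cells of a type and less RNA per cell cannot be told apart. The median signal was 172.9 to 194.6 on the fetal arrays and 210.2 to 214.4 on the adult arrays, and the number of arrays limits the precision.

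A few arrays stood apart. On 60dG replicate 2 the 5 adrenal gland markers summed to 7579, against 166 to 324 on the other fetal arrays. Podocyte markers summed to 1505 there, against 3380 on 60dG replicate 1, mostly through PTPRO (671 against 2428). SYNPO (59.2 against 116) and COL4A3 (239 against 330) were also lower, and NPHS1 (194 against 188) and PODXL (341 against 318) were not. The ratio of 3' to 5' signal of the GAPDH control probe sets, which grows as RNA is shortened from its 5' end, was 1.78, 2.46 and 3.43 on 90dG replicates 1, 2 and 3, with all other fetal arrays between 1.62 and 1.99. For 9 spiked control probe sets, the geometric mean was 581, 1198 and 1350 on those 90dG arrays, and 1651 to 2007 on the other fetal arrays. On 90dG replicate 3, 10 immediate early genes summed to 8422, against 2510 to 4351 on the other fetal arrays. Adult replicate 3 had a sum of 7740 over 4 skeletal muscle markers, against 98.5 to 316 on all other arrays. The part that these differences play in the results below was not tested, except where values without an array or with the ratio as a covariate are given.

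Across the fetal stages, 11 of the 37 tested members changed (limma, moderated F over 4 stages, adjusted p under 0.05), against 18.2% of all tested genes. They were 6 of 18 cytosolic members (HSPH1, HSP90AA1, HSP90AB1, STIP1, CRYAB and CCT4), 1 of 3 mitochondrial members (HSPE1) and 4 of 14 ER members (HSPA5, HSP90B1, HYOU1 and DNAJC10). All 3 tested members of the cytosolic HSP90 system passed, but HSP90AA1 failed with the GAPDH ratio as a covariate (limma, adjusted p = 0.324). With quantile normalization and without the variance trend, HSP90AB1 (limma, adjusted p = 0.126 and 0.0693) and CCT4 (0.0729 and 0.0526) failed as well. None of the 5 tested members of the ER lectin and disulfide system and neither of the 2 transcription factors passed, and at an unadjusted p under 0.05 there were 17 of the 37 members (45.9%, against 34.3% of all tested genes). When 60dG replicate 2, the array with adrenal markers, was left out, 7 members passed, and HSPH1 (limma, adjusted p = 0.0643), HSP90AA1 (0.0840), HSP90AB1 (0.108) and CCT4 (0.113) did not. HSP90AA1 was also lost without any 1 of 6 other arrays (limma, adjusted p from 0.0530 to 0.0620), HSP90AB1 when 60dG replicate 1, 90dG replicate 2 or 160dG replicate 2 or 3 was left out (0.0529 to 0.0754), CCT4 without 90dG replicate 2 or 160dG replicate 1 or 2 (0.0552 to 0.0676), and HSPE1 without 90dG replicate 2 (0.121) and when replicate 1 (0.0505) or 3 (0.0700) of 125dG was left out. HSPE1 was also lost with 90dG reduced to replicate 1 (limma, adjusted p = 0.209), with the GAPDH ratio as a covariate (0.0673) and with a replicate block (0.0515).

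**Figure D1:**
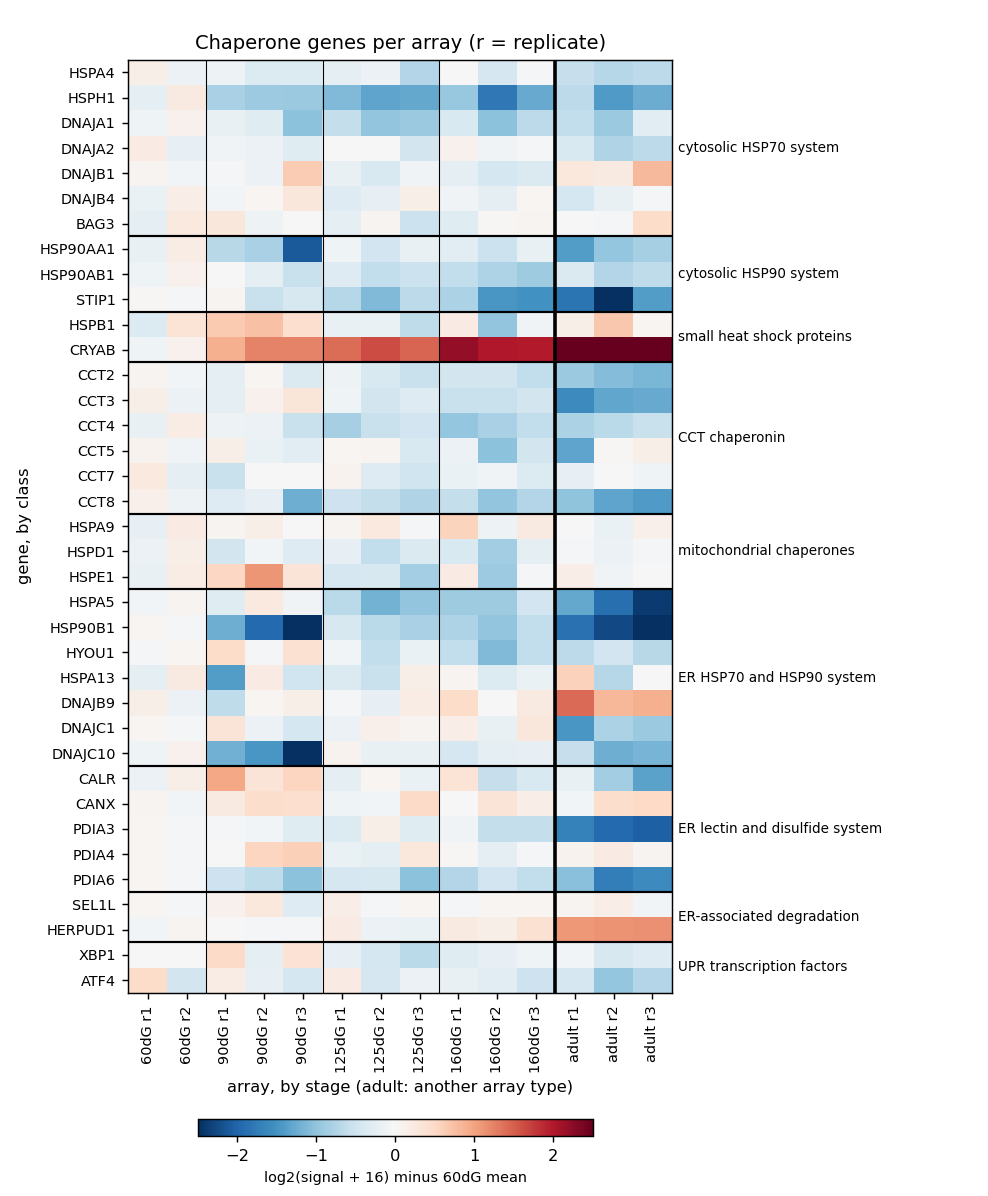
Log2(signal + 16) of each of the 37 tested members (rows, by class) on each array (columns, by stage, r for replicate), minus the gene's 60dG mean. Red is higher and blue lower, differences beyond 2.5 either way share the end colour, and adults are of another array type. CRYAB is higher from 90dG on, HSPH1 and STIP1 are lower in the later stages, and HSP90B1 and DNAJC10 are lowest on the 90dG arrays among the fetal ones.

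CRYAB, the small heat shock protein alphaB-crystallin, rose through gestation. Its signal was 244 and 290 at 60dG, 509, 654 and 648 at 90dG, 721, 855 and 753 at 125dG, and 1268, 1110 and 1096 at 160dG. The arrays of successive stages did not overlap at any step. Its mean was 1158 ± 95.6 (SD, n = 3) at 160dG and 267 ± 32.3 (SD, n = 2) at 60dG. The log2 difference between 160dG and 60dG was 2.06 ± 0.18 (SE; limma, adjusted p = 1.20e-05), a 4.16-fold rise. Its linear trend was 0.18 ± 0.02 log2 per 10 days (SE; limma, adjusted p = 9.13e-05), and 1 member rose by this test, against 4.83% of all tested genes.

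The other small heat shock protein tested did not pass. HSPB1, known as HSP27, which binds unfolding proteins and actin, had signals of 680 and 1101 at 60dG, 1370, 1451 and 1170 at 90dG, 762, 769 and 553 at 125dG, and 1001, 428 and 810 at 160dG. It was highest on the 90dG arrays, which did not overlap with those of 60dG or 125dG. Its adjusted p over the stages was 0.0673 (limma F), and it passed without 160dG replicate 1 (0.0359) or 160dG replicate 2 (0.0390), and with array weights (0.0468).

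The falling members were led by HSPH1 and STIP1. For a linear trend 6 members fell, against 4.91% of all tested genes, and 7 members passed in either direction, against 9.74%. The 6 were HSPH1, HSP90AB1, STIP1, CCT4, HSPA5 and HYOU1, and 12 members (32.4%, against 25.1% of all tested genes) had an unadjusted p under 0.05. The same 7 genes passed between 160dG and 60dG, 1 higher against 6.92% of all tested genes and 6 lower against 4.72%, and 7 of 37 set against 11.6% in either direction.

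HSPH1, a large HSP70 relative that exchanges the nucleotide of HSP70, had a signal of 882 and 1209 at 60dG, 579, 544 and 533 at 90dG, 471, 403 and 414 at 125dG, and 530, 287 and 420 at 160dG. Every later array was below those of 60dG. The log2 difference between 160dG and 60dG was -1.33 ± 0.23 (SE; limma, adjusted p = 0.00201), and it passed under each of the 22 alternatives tried.

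STIP1, the co-chaperone HOP that links HSP70 with HSP90, had a signal of 663 and 632 at 60dG, 677, 436 and 490 at 90dG, 389, 293 and 408 at 125dG, and 366, 227 and 216 at 160dG. Its 125dG and 160dG arrays lay below all arrays of 60dG and 90dG. The log2 difference between 160dG and 60dG was -1.25 ± 0.25 (SE; limma, adjusted p = 0.00505, and 0.0576 without 60dG replicate 1). Its linear trend of -0.13 ± 0.02 log2 per 10 days (SE; limma, adjusted p = 0.00232) passed under every alternative tried.

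HSP90AB1, the constitutive cytosolic HSP90, had a signal of 4680 and 5416 at 60dG, 5090, 4244 and 3408 at 90dG, 4000, 3271 and 3450 at 125dG, and 3279, 2951 and 2730 at 160dG. The 160dG arrays lay below those of 60dG, with a log2 difference of -0.75 ± 0.17 (SE; limma, adjusted p = 0.0109). Without 60dG replicate 2 the difference was -0.65 and did not pass (limma, adjusted p = 0.115). Its other bright probe set had -0.49 and did not pass in the fit of all probe sets (limma, adjusted p = 0.101), nor did its trend (0.321) or its F over the stages (0.155). On the probe set used, the linear trend was lost with quantile normalization (limma, adjusted p = 0.0739). CCT4, a subunit of the CCT chaperonin, had 2045 and 2642 at 60dG, 2135, 2104 and 1583 at 90dG, 1292, 1566 and 1667 at 125dG, and 1186, 1310 and 1510 at 160dG. Its 160dG arrays lay below those of 60dG, with a log2 difference of -0.80 ± 0.19 (SE; limma, adjusted p = 0.0147). That call did not hold when 60dG replicate 2 was left out (limma, adjusted p = 0.166), and neither did it when 160dG replicate 1 was (0.0523).

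The other CCT subunits lay on the same side. All 6 tested subunits had a negative log2 difference between 160dG and 60dG, with a median of -0.53, whereas the median over all tested genes was -0.01. The values were -0.77 for CCT8, -0.54 for CCT5, -0.52 each for CCT2 and CCT3, and -0.19 for CCT7, none of which passed (limma, adjusted p from 0.0626 for CCT8 to 0.685 for CCT7). The sum of cell cycle genes was lower at each later fetal stage, as given above, and its part in these values was not tested.

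**Figure D2:**
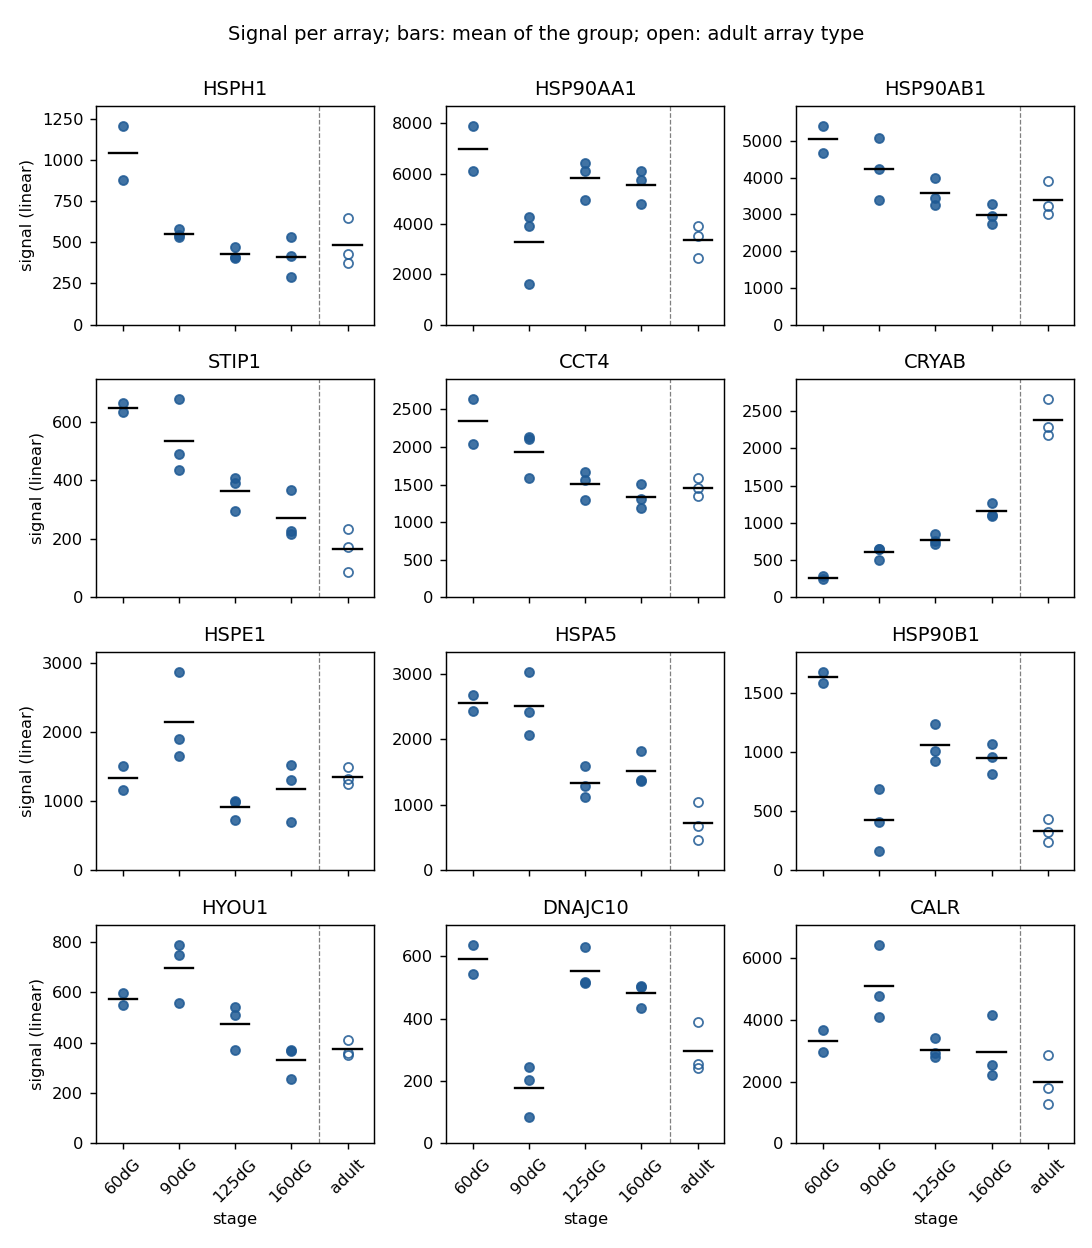
Signal (linear) on each array of the 11 members that changed over the fetal stages and of CALR, by stage. Points are arrays, bars the mean of the group, and open points the adult array type. CRYAB rises stage by stage, STIP1, HSPH1 and CCT4 are lower at 160dG than at 60dG, and HSP90B1 and DNAJC10 have their fetal minimum at 90dG.

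In the ER, HSPA5 and HYOU1 fell between the early and late stages. HSPA5 is BiP, the HSP70 of the ER and the usual readout of the unfolded protein response. Its signal was 2436 and 2676 at 60dG, 2070, 3031 and 2417 at 90dG, 1588, 1114 and 1283 at 125dG, and 1363, 1378 and 1817 at 160dG. Every array of 125dG and 160dG lay below every array of 60dG and 90dG. The log2 difference was -0.90 ± 0.18 between 125dG and 90dG (SE; limma, adjusted p = 0.0183) and -0.76 ± 0.20 between 160dG and 60dG (SE; limma, adjusted p = 0.0268). The F over the stages passed for HSPA5 under each alternative tried. The 125dG difference was lost without 90dG replicate 2 or 3 or 125dG replicate 2 or 3 (limma, adjusted p from 0.0533 to 0.0766), and the trend without 60dG replicate 2 or 160dG replicate 1 or 2 (0.0538 to 0.0642). The difference between 160dG and 60dG did not pass when either 60dG array was left out (limma, adjusted p = 0.110 and 0.161), nor without 160dG replicate 1 (0.0864) or 2 (0.0750).

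HYOU1, the nucleotide exchange factor of BiP, had a signal of 550 and 595 at 60dG, 788, 556 and 748 at 90dG, 542, 370 and 509 at 125dG, and 370, 257 and 367 at 160dG. Its 160dG arrays lay below those of 60dG and 90dG. The log2 difference between 160dG and 60dG was -0.78 ± 0.23 (SE; limma, adjusted p = 0.0426). It failed when any 1 of the 60dG arrays (limma, adjusted p = 0.156 and 0.196), the 160dG arrays (0.0539 to 0.129) or 125dG replicate 3 (0.0516) was left out, and its trend was lost without any 1 of the 160dG arrays (0.0548 to 0.0852).

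HSP90B1 and DNAJC10, described below for their 90dG values, had log2 differences between 160dG and 60dG of -0.78 ± 0.39 and -0.28 ± 0.31 (SE; limma, adjusted p = 0.225 and 0.643). HSP90B1 passed without 90dG replicate 3 (limma, adjusted p = 0.0354), and its other probe set fell by 1.13 and passed in the fit of all probe sets (limma, adjusted p = 0.0417). In that fit the other probe set did not pass the F over the stages (limma, adjusted p = 0.0574). It also failed for 90dG against 60dG (limma, adjusted p = 0.0510) and for 125dG against 90dG (0.240). Other members of the ER HSP70 and HSP90 system gave small differences between 160dG and 60dG. They were 0.23 for the J-domain protein DNAJB9, 0.09 for DNAJC1 and -0.15 for HSPA13, each with overlapping arrays. SEL1L, part of the machine that sends misfolded proteins out of the ER for degradation, had group means between 1049 and 1094 at all 4 fetal stages. HERPUD1, another part of that machine, had a log2 difference of 0.25 ± 0.18 (SE; limma, adjusted p = 0.451).

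CALR, the ER lectin calreticulin, had a signal of 2955 and 3672 at 60dG, 6448, 4102 and 4786 at 90dG, 2793, 3416 and 2916 at 125dG, and 4163, 2216 and 2541 at 160dG. The 90dG arrays lay above those of 60dG and 125dG, as HSPB1 did. CALR missed the threshold over the stages (limma F, adjusted p = 0.0529) and passed it without 160dG replicate 1 (0.0112). It also passed with the GAPDH ratio as a covariate (limma F, adjusted p = 0.0278), a pseudocount of 64 (0.0496) or a 0.75 quantile filter (0.0491). The disulfide isomerase PDIA6 had 933, 852 and 651 at 90dG, against 1376 and 1301 at 60dG, a log2 difference of -0.73 ± 0.22 (SE; limma, adjusted p = 0.0509) with no overlap. Between 160dG and 60dG it was -0.61 ± 0.22 (SE; limma, adjusted p = 0.0890), also with no overlap. Another of its probe sets, with -0.65 and -0.66, passed both comparisons in the fit of all probe sets (limma, adjusted p = 0.0439 and 0.0389), and the rest did not. PDIA3, which works on glycoproteins with calreticulin, had a log2 difference between 160dG and 60dG of -0.43 ± 0.20 (SE; limma, adjusted p = 0.201), and PDIA4 and CANX had -0.07 and 0.17.

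XBP1, a transcription factor of the unfolded protein response that is switched on by splicing, had 305 and 313 at 60dG, 434, 261 and 404 at 90dG, 266, 223 and 188 at 125dG, and 247, 265 and 284 at 160dG. Spliced and unspliced XBP1 were not told apart here. Neither XBP1 (limma F, adjusted p = 0.148) nor ATF4 (0.770), a transcription factor of the branch that slows translation, passed the test over the stages.

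Of the mitochondrial chaperonin pair, HSPE1 changed over the stages. HSPE1, the HSP10 lid of the chaperonin, had 1168 and 1510 at 60dG, 1906, 2874 and 1662 at 90dG, 993, 1003 and 735 at 125dG, and 1524, 697 and 1307 at 160dG. It was highest on the 90dG arrays, and the log2 difference between 125dG and 90dG was -1.20 ± 0.27 (SE; limma, adjusted p = 0.0268). Leaving out 90dG replicate 2 or 3, or 125dG replicate 1 or 3, ended that call (limma, adjusted p from 0.0542 to 0.109). HSPD1, the HSP60 barrel, had 5018 and 6191 at 60dG, 4049, 5303 and 4453 at 90dG, 4811, 3646 and 4314 at 125dG, and 4278, 3033 and 4713 at 160dG. HSPD1 did not pass over the stages (limma F, adjusted p = 0.250), nor did HSPA9, the mitochondrial HSP70 (0.838).

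Between 90dG and 60dG, HSP90B1 and DNAJC10 were the members with the largest differences. CRYAB was higher and HSPH1, HSP90AA1, HSP90B1 and DNAJC10 were lower, so 5 of 37 passed, against 9.11% of all tested genes. By direction, 1 member against 5.53% was higher and 4 members against 3.58% were lower, and 8 members (21.6%, against 25.9% of all tested genes) had an unadjusted p under 0.05. The question is which chaperones differ between the first stages sampled.

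HSP90B1, or GRP94, the HSP90 of the ER, had a signal of 687, 412 and 164 at 90dG, against 1676 and 1583 at 60dG. The log2 difference was -2.12 ± 0.39 (SE; limma, adjusted p = 0.00595). Its signal was 1234, 1011 and 924 at 125dG and 953, 817 and 1064 at 160dG, so every 90dG array lay below every array of the later stages. The name of the probe set marks possible sharing with other transcripts.

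DNAJC10, a J-domain protein of the ER that reduces disulfide bonds with BiP, had 245, 205 and 84.1 at 90dG, against 542 and 637 at 60dG. The log2 difference was -1.75 ± 0.31 (SE; limma, adjusted p = 0.00529). At 125dG it had 628, 513 and 517, and at 160dG 435, 502 and 506, so the 90dG arrays were again the lowest.

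HSP90AA1, the inducible cytosolic HSP90, had 4257, 3929 and 1598 at 90dG, against 6092 and 7893 at 60dG, with a log2 difference of -1.21 ± 0.31 (SE; limma, adjusted p = 0.0285). It had 6435, 4963 and 6096 at 125dG, and 5739, 4805 and 6098 at 160dG. Replicate 3 was the lowest of the 90dG arrays for these 3 genes, and it also had the highest GAPDH ratio. HSPH1 differed by -0.89 ± 0.23 (SE; limma, adjusted p = 0.0315) and CRYAB by 1.13 ± 0.18 (SE; limma, adjusted p = 0.00333).

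**Figure D3:**
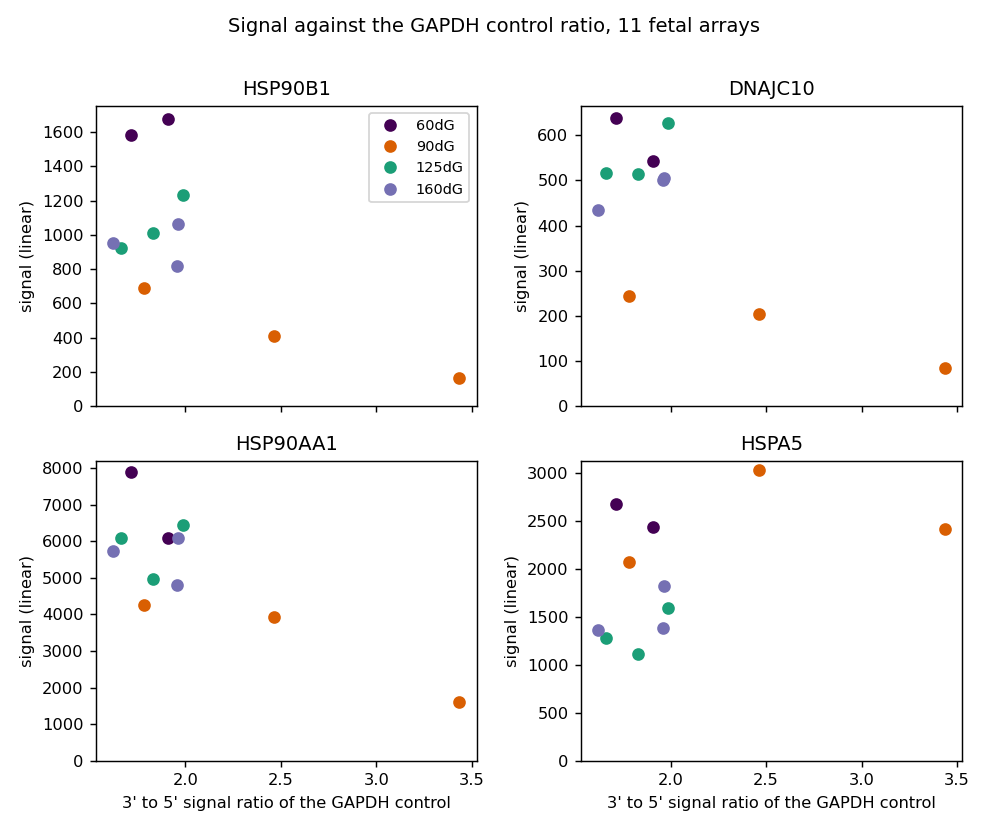
Signal (linear) of HSP90B1, DNAJC10, HSP90AA1 and HSPA5 on the 11 fetal arrays against the 3' to 5' signal ratio of the GAPDH control, coloured by stage. The first 3 genes are lowest on the 90dG array with the ratio of 3.43. The 90dG array with a ratio of 1.78 is below the 60dG arrays for these genes, and it has the lowest spiked control mean of the fetal arrays (581). The part of the ratio in these values was not tested beyond the covariate values given in the text. HSPA5 is higher on the 90dG arrays than on those of 125dG and 160dG.

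The calls of this step depended on the arrays used. When the GAPDH ratio (log2) was added as a covariate, 3 members passed, and HSPH1 (limma, adjusted p = 0.136) and HSP90AA1 (0.169) did not. With 90dG replicate 1 alone for the stage, 2 members passed, DNAJC10 and HSP90B1. HSP90B1 differed by -1.40 with the covariate and by -1.23 with 90dG replicate 1 alone, and HSP90AA1 by -0.63 and -0.70, and by -0.76 without 90dG replicate 3. Without 60dG replicate 1, DNAJC10 alone passed, and HSP90B1 had an adjusted p of 0.0649 (limma) and CRYAB 0.0530. Without 60dG replicate 2, 3 members passed, and HSPH1 (limma, adjusted p = 0.234) and HSP90AA1 (0.181) did not. HSPH1 also failed when 90dG replicate 2 or 3 was left out (limma, adjusted p = 0.0734 and 0.0803).

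Between 125dG and 90dG, HSP90B1 and DNAJC10 were higher and HSPA5 and HSPE1 lower, 4 of 37 members against 5.17% of all tested genes. By direction, 2 against 2.56% were higher and 2 against 2.61% were lower, and 11 members (29.7%, against 23.9% of all tested genes) had an unadjusted p under 0.05. The log2 difference was 1.66 ± 0.28 for DNAJC10 (SE; limma, adjusted p = 0.0100) and 1.49 ± 0.35 for HSP90B1 (SE; limma, adjusted p = 0.0282). The value of HSP90B1 was 0.96 without 90dG replicate 3, 0.78 with the GAPDH covariate and 0.60 with 90dG replicate 1 alone for the stage. HSP90AA1 differed by 0.95 ± 0.28 (SE; limma, adjusted p = 0.0641), HSPB1 by -0.93 ± 0.27 (0.0637) and CALR by -0.73 ± 0.22 (0.0684), and none of the 3 passed. With the GAPDH covariate, or with 90dG replicate 1 alone for the stage, 0 members passed in limma, and DNAJC10 had an adjusted p of 0.0610 and 0.0537.

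These calls also rested on single arrays. The count was 1, DNAJC10, without 90dG replicate 3 or 125dG replicate 3, and 2 without 90dG replicate 2 or without 125dG replicate 1 or 2. HSP90B1 was lost in each of these 5 fits (limma, adjusted p from 0.0571 to 0.0965).

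Between 160dG and 125dG, 0 members passed in limma, against 0.322% of all tested genes (0.0758% higher and 0.246% lower), and 2 members had an unadjusted p under 0.05. They were CRYAB, with a log2 difference of 0.57 ± 0.16 (SE; limma, adjusted p = 0.239), and HYOU1, with -0.50 ± 0.21 (SE; limma, adjusted p = 0.506). Over all tested genes 17 passed, and 436 had an unadjusted p under 0.05.

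Probe sets of the same gene did not always move alike, and less so in the steps to and from 90dG than between 60dG and 160dG. For 12 tested members, 18 other probe sets were bright enough to be compared. Between 160dG and 60dG, 16 of the 18 had the sign of the probe set used, 0 differed from it by more than 1 on the log2 scale, and the median distance was 0.16. Between 90dG and 60dG, 13 had the same sign and 4 differed by more than 1, and the median distance was 0.38. Between 125dG and 90dG only 8 had the same sign and 10 the opposite one, 2 differed by more than 1, and the median distance was 0.44. There HSP90AA1 had 0.95 on the probe set used and 0.65, -0.10 and -0.21 on the others, and HSP90B1 1.49 and 0.57.

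The 90dG differences of named genes spread accordingly. HSP90B1 had -2.12 on the probe set used and -1.09 on the other. HSP90AA1 had -1.21 on the probe set used and -1.34, -0.60 and -0.28 on the others. CCT2 had -0.19 and -1.32, HSPD1 -0.28 and -1.04, PDIA4 0.38 and -0.93, and CANX 0.36, -0.31 and -0.81, so the direction of PDIA4 and CANX depended on the probe set. CALR gave 0.61, 0.42 and 0.47, all higher at 90dG, and PDIA6 gave -0.73 and, on 3 others, -0.67 to -0.61. The other DNAJC10 probe set, below the brightness limit, had 86.0, 55.0 and 78.3 at 90dG, against 133 and 136 at 60dG. The position of the probe sets along the transcripts was not used here, and its part in these differences was not tested.

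**Figure D4:**
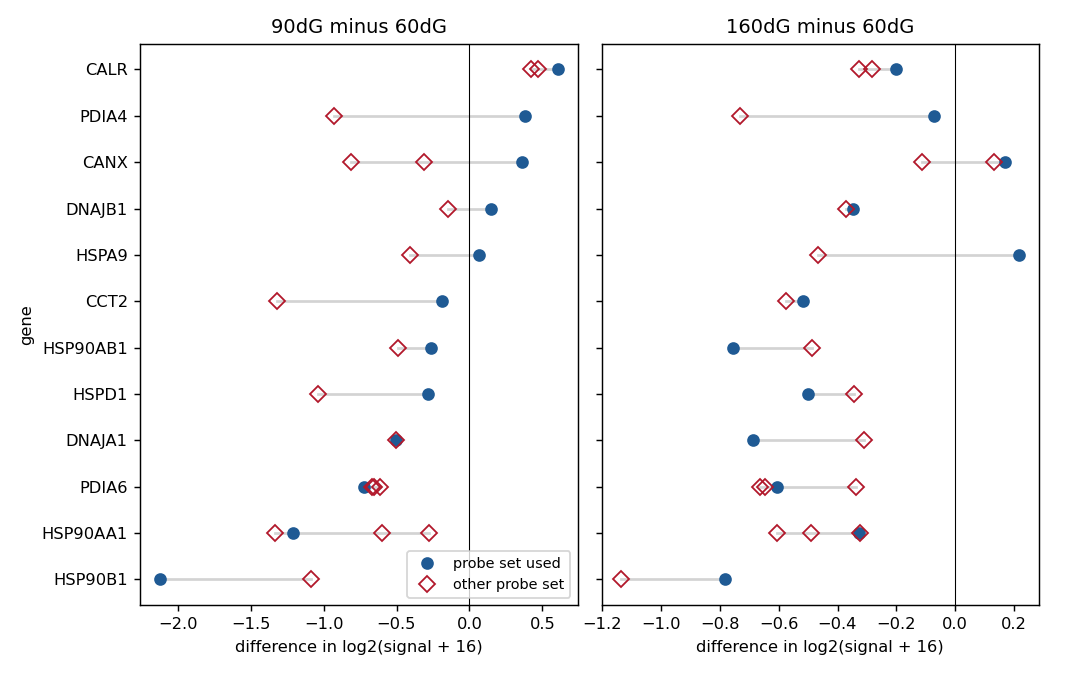
Log2 difference of the probe set used (filled) and of other probe sets above the brightness limit (open diamonds) of 12 members, for 90dG minus 60dG (left) and 160dG minus 60dG (right). The horizontal scales differ. Most probe sets of a gene lie close together on the right. Those of CCT2, HSPD1, PDIA4, CANX, HSP90AA1 and HSP90B1 lie apart on the left.

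Cytosolic members lay lower late in gestation than ER members as a class, though not in every subclass, without a test since the members were chosen. For each array, the median over a class of the log2 difference from the 60dG mean was taken. For the 18 cytosolic members it was -0.11, -0.15 and -0.33 at 90dG, -0.20, -0.38 and -0.52 at 125dG, and -0.28, -0.54 and -0.40 at 160dG. For the 14 ER members it was -0.02, 0.01 and -0.19 at 90dG, -0.16, -0.20 and -0.17 at 125dG, and -0.02, -0.28 and -0.19 at 160dG. The medians over all tested genes stayed between -0.01 and 0.08 on the fetal arrays.

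Gene by gene, 17 of 18 cytosolic members had a negative difference between 160dG and 60dG, with a median of -0.43 and CRYAB as the exception. Among ER members 9 of 14 were negative, with a median of -0.17. The cytosolic subclasses differed. Their medians were -0.16 for the HSP70 system (7 members), -0.75 for the HSP90 system (3), -0.53 for CCT (6) and 0.88 for the small heat shock proteins (2). In the ER they were -0.28 for the HSP70 and HSP90 system (7), -0.20 for the lectin and disulfide system (5) and 0.13 for degradation (2). Over all tested genes 2682 of 5278 were negative. On 160dG arrays the ER median exceeded the cytosolic one by 0.25 ± 0.03 (SD, n = 3), on 125dG arrays by 0.19 ± 0.15 (SD, n = 3) and on 90dG arrays by 0.12 ± 0.03 (SD, n = 3). Both classes are medians over small lists on the same arrays, and each 60dG array shaped the baseline. The 160dG value of 0.25 became 0.32 without 60dG replicate 2 and 0.19 without 60dG replicate 1.

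**Figure D5:**
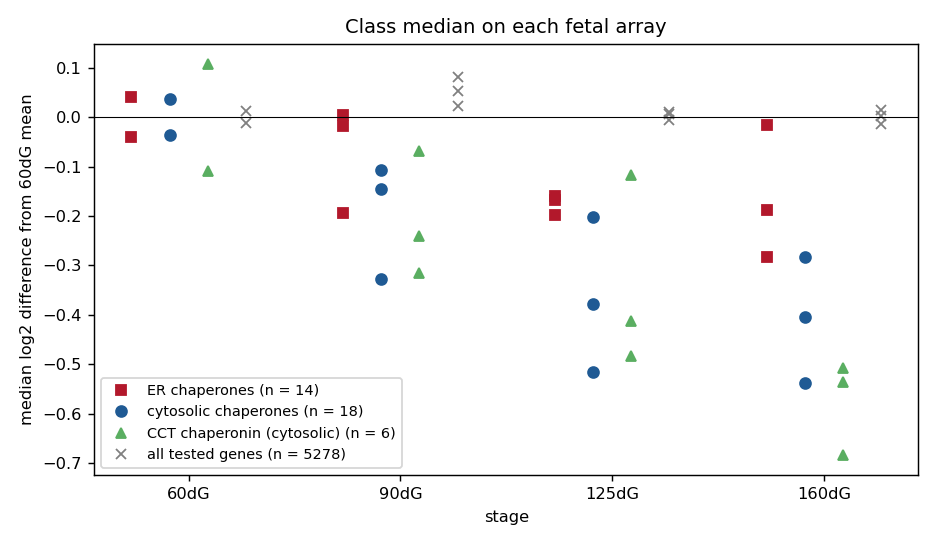
Median over a class of the log2 difference from the 60dG mean, on each fetal array, by stage. Red squares are the 14 ER members, blue circles the 18 cytosolic members, green triangles the 6 CCT subunits among them and grey crosses all 5278 tested genes. At 160dG each cytosolic point is below zero, the CCT points lie between -0.51 and -0.68, and all tested genes lie near zero.

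Adult kidneys were set beside 160dG kidneys without a test, because array type and stage cannot be told apart. Members counted here had no overlap between the 3 adult and the 3 160dG arrays and differed at least 2-fold. Of the 37 members, 4 were lower, HSP90B1, PDIA3, DNAJC1 and HSPA5, against 13% of all tested genes, and 1 was higher, CRYAB, against 4.64%. HSP90B1 is counted by a probe set that another of the same gene opposes, as given below, and without it 3 of 36 were lower (8.33%). Both counts over all members are below the share of all tested genes. The 4 lower members, HSP90B1 among them, were all of the ER, 4 of 14 (28.6%), against 0 of 18 cytosolic members. The difference between the classes was not tested.

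HSPA5 had 1040, 676 and 470 in adults, against 1363, 1378 and 1817 at 160dG, a log2 difference of -1.10. PDIA3 had 628, 524 and 483 in adults, against 1924, 1344 and 1360 at 160dG, a log2 difference of -1.46. DNAJC1 had 99.5, 167 and 150 in adults, against 337, 260 and 370 at 160dG, a log2 difference of -1.14. For these 3 genes every adult array lay below every 160dG array, and each has no other probe set with its symbol alone.

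HSP90B1 had 437, 327 and 242 in adults, against 953, 817 and 1064 at 160dG, a log2 difference of -1.48. Its other probe set went the opposite way, with 1182, 1240 and 829 in adults, against 218, 299 and 432 at 160dG, a log2 difference of 1.76. The direction of HSP90B1 between adult and 160dG is therefore not settled by the probe sets compared. Another 2 probe sets carry its symbol together with others and were given no value. CALR was lower in adults on each of its probe sets, with -0.60 on the one used and -0.08 and -1.43 on the others. Only the size of its difference depended on the probe set. Of the 18 other probe sets, 8 had the sign of the probe set used, 10 the opposite sign, and 5 differed from it by more than 1.

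CRYAB had 2283, 2185 and 2664 in adults, against 1268, 1110 and 1096 at 160dG, a 2.04-fold difference. CRYAB is also a chaperone of skeletal muscle, and adult replicate 3, the array with muscle markers, had the highest value. Without that array, or without 160dG replicate 2 or 3, the difference of CRYAB stayed without overlap but was under 2-fold, and the count of higher members was 0. DNAJB9, HERPUD1 and DNAJB1 had log2 differences of 0.81, 0.87 and 0.78 without overlap. The other bright probe set of DNAJB1 had -0.53, so its direction depended on the probe set. HERPUD1, for example, had 1032, 1069 and 1072 in adults, against 561, 530 and 628 at 160dG. CCT3 was lower without overlap, by -0.86.

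As classes, the medians of the adult difference were -0.28 for the 14 ER members, 0.09 for the 18 cytosolic members and -0.13 for all tested genes. The order of the classes depended on the probe set of HSP90B1. With HSP90B1 on its other probe set, an alternative chosen after seeing the data, the ER median was 0.07, and with the mean over the bright probe sets of each gene, likewise added, it was -0.27 for the ER and -0.02 for the cytosol. Within the ER, the 7 tested members of the HSP70 and HSP90 system had a median of -0.70, or 0.11 under either alternative. The 5 of the lectin and disulfide system had -0.60, or -0.29 with the mean over probe sets. The 2 degradation members had 0.45, with HERPUD1 higher and SEL1L at 0.04.

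Other folding genes, outside the 50, gave 4 calls over the fetal stages. Of 27 tested genes of ER folding and degradation that are no members, 4 passed (limma F), or 14.8% against 18.2% of all tested genes, and 9 had an unadjusted p under 0.05. None of 21 genes of cytosolic proteostasis, 7 of the unfolded protein response or 7 of mitochondrial proteostasis passed (limma F), with 6, 1 and 0 at an unadjusted p under 0.05. The difference between these lists was not tested. SERPINH1, the collagen chaperone HSP47, averaged 1788 at 160dG and 3019 at 60dG, a log2 difference of -0.75 ± 0.16 (SE; limma, adjusted p = 0.00646). PPIB, a prolyl isomerase that works with it on collagen, differed by -0.60 ± 0.13 between 125dG and 90dG (SE; limma, adjusted p = 0.0236).

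SEC63 and SEC62, which help proteins enter the ER through the translocon, had low 90dG values as HSP90B1 and DNAJC10 did. Between 90dG and 60dG, SEC63 differed by -0.98 ± 0.24 (SE; limma, adjusted p = 0.0224) and SEC62 by -1.15 ± 0.28 (SE; limma, adjusted p = 0.0211). SEC63 was higher again at 125dG than at 90dG, by 0.94 ± 0.21 (SE; limma, adjusted p = 0.0273). SEC62 did not pass at that step, with 0.40 ± 0.25 (SE; limma, adjusted p = 0.349). It averaged 539 at 90dG, 716 at 125dG and 1415 at 160dG. Values without single arrays or with the GAPDH covariate are not given for these genes.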

How the data were processed

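Total RNA of whole kidney was labelled as biotinylated cRNA and hybridised to human Affymetrix arrays, per the labels. The authors deposited 1 linear intensity per probe set. The submitters' processing notes name GCOS, and its version, algorithm and scaling target are not stated in these sources. Between fetal arrays the trimmed mean (2% cut) varied by up to 1.02 times, and by 1.07 times with the adults, so the intensities were not rescaled.

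Groups came from the labels. The members and gene lists were chosen with earlier results of these data known. Symbols were read from the platform annotation. Among 16186 probe sets, 43 are controls, 14068 have 1 symbol, 735 several and 1340 none, and those with several or none gave no name. Each of the 9580 genes was represented by its probe set of highest fetal mean, as log2(signal + 16), which understates the fold of dim genes. Genes above the median of all probe sets (7.60 log2) were kept.

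The 4 fetal stages were fitted over 11 arrays with limma 3.58.1 in R 4.3.3 (lmFit, eBayes with an intensity trend), with Benjamini-Hochberg adjustment over 5278 genes and a threshold of 0.05. Comparisons were a moderated F, a slope per 10 days, each successive pair, and 160dG against 60dG. Per-array values were given for every member called in any of these and for 9 set members, of which HSPA8 and DDIT3 have no value. From the other proteostasis lists, up to 4 called genes each with the smallest p were named. For adults, the 5 members with the largest differences each way without overlap were chosen, of which HSPA2 lies below the filter. Adult arrays and class medians were not tested. The model was tested on simulated data. Alternatives were pseudocounts of 1 and 64, no filter or a 0.75 quantile filter, quantile normalization, no variance trend, array weights, a replicate block, all probe sets, the GAPDH ratio as a covariate, 90dG reduced to replicate 1, and leaving out each array. Sequences were not printed, and no genome was used. Figures were drawn with matplotlib 3.10.9.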

Additional observations from a re-analysis of the deposited data

How the results depend on the processing

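No result changed sign with a call. On the probe sets used, STIP1, CRYAB, HSPA5, HSP90B1 and HYOU1 passed the F over the stages in each of the 22 alternatives. DNAJC10 passed it in each of the 21 that tested it, while HSP90AA1 failed in 12. Leaving out each array in turn gave 7 to 12 members for the F, 5 to 8 for the trend, 1 to 6 for 90dG against 60dG, 1 to 5 for 125dG against 90dG, 0 to 0 for 160dG against 125dG and 3 to 9 for 160dG against 60dG (3 without 60dG replicate 2, 4 without 60dG replicate 1 or 160dG replicate 1). It gave 0 to 1 higher and 3 to 4 lower members in adults, and an ER median above the cytosolic one by 0.056 to 0.17 at 90dG, 0.11 to 0.26 at 125dG and 0.19 to 0.32 at 160dG. For 90dG against 60dG the count was 3 with the GAPDH covariate and 2 with 90dG reduced to replicate 1, and for 125dG against 90dG it was 0 with either. Adults had 2 higher members with quantile normalization and 0 with a pseudocount of 64, and the 90dG class difference was 0.16 with no filter. The causes were not tested.

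Deviations from the stage means correlated above 0.1 in 2 of 15 same-number pairs (-0.11 to 0.18) and in 4 of 30 other pairs (-0.18 to 0.17). With 2 or 3 arrays per stage, this cannot settle whether the replicate numbers pair the samples. With the replicate block the F called 9 members, the trend 7, 90dG against 60dG 3 (without HSPH1 and HSP90AA1), 125dG against 90dG 4 and 160dG against 60dG 7.

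Counts of all genes moved too. The F count of 960 was 547 with 90dG reduced to replicate 1, 532 and 638 when 60dG replicate 1 or 2 was left out, and 622 without 90dG replicate 3. The trend count of 514 was 317 and 333 without 160dG replicate 1 or 3. The 481 of 90dG against 60dG ranged from 81 (without 60dG replicate 1) to 668 (array weights), the 273 of 125dG against 90dG from 32 (90dG reduced to replicate 1) to 481 (array weights), the 17 of 160dG against 125dG from 0 (without 125dG replicate 1) to 21, and the 614 of 160dG against 60dG from 242 (without 60dG replicate 1) to 734.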

Other observations

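The 5 members below the brightness limit were not tested at that limit. HSPB8, a small heat shock protein that works with BAG3, averaged 19.5 ± 3.04 (SD, n = 2) at 60dG, 59.8 ± 64.2 at 90dG, 34.2 ± 19.7 at 125dG and 119 ± 47.8 at 160dG (SD, n = 3 each), with 74.3 on the lowest 160dG array and 133 on 90dG replicate 1. HSPA2, an HSP70 known from spermatogenesis, had 163, 155 and 164 at 90dG, against 71.5 and 83.4 at 60dG, and 159, 251 and 243 in adults, against 139, 116 and 60.1 at 160dG. DNAJC3, which curbs the kinase PERK in the unfolded protein response, had 47.7 and 120 at 60dG, and the oxidase ERO1A 20.8 and 13.3.

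These results have limits. Each stage has 2 or 3 arrays, and the 60dG baseline of 2 holds an array with adrenal markers. Probe sets of a gene can differ, most of all at 90dG and between array types. HSPA8 was given no value. Messenger RNA is no measure of chaperone protein, and whole kidney mixes all its cell types.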
